A study of Drosophila melanogaster with 6 samples.

Results

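The haemocyte identity genes are 8 genes by which fly blood cells are recognised: crq, srp, Pxn, Hml, Pvr, ush, NimC1 and lz. They were chosen by name, with earlier results of these data known. Their sites are all rows of the deposited C-to-T and truncation lists that carry any of these names. That gave 76 sites of 29142, of which 12 of 6225 were C-to-T sites and 64 of 22917 were truncation sites. All 76 sites belonged to 5 of the 8 genes, Pvr (23 sites), ush (22), crq (14), Pxn (11) and srp (6), while Hml, NimC1 and lz had none in either list.

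The lists come from miCLIP, which maps the RNA modification N6-methyladenosine (m6A), in S2R+ cells, an established Drosophila line of haemocyte-like character that was cultured in serum-supplemented medium at room temperature and left untreated. Fragmented poly(A) RNA was precipitated with an m6A antibody in 4 crosslinked replicates (IPs), beside 1 IP control without crosslinking and 1 input of fragmented mRNA. All 6 libraries come from the same line, with no change of genotype, and nothing in the labels says that the replicates were separate cultures. Each site carries values combined over the IPs, so the spread between replicates is unknown, and neither control is analysed here.

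Haemocytes of the fly arise under the GATA factor encoded by srp, and the cofactor encoded by ush binds GATA factors and modulates their output. The Runx factor encoded by lz directs crystal cells, the class that carries prophenoloxidase. Most haemocytes are plasmatocytes, which carry the growth factor receptor Pvr, engulf dead cells and bacteria through receptors such as Croquemort (crq) and NimC1, and secrete matrix and clotting proteins such as Peroxidasin (Pxn) and Hemolectin (Hml). m6A is placed on A and is commonly followed by C. In miCLIP the antibody crosslinked beside it leaves a C-to-T change in that C or stops reverse transcription, so a truncation at A directly 5' of a converted C (here called a pair) is a mark at the same A from both readouts.

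A gene was counted as marked when it had at least 1 listed site. By that count 5 of the 8 haemocyte genes were marked in either list, against 27.6% of 13968 nuclear protein-coding genes. The same 5 genes had truncation sites, which 27.6% of all genes had, and the same 5 had C-to-T sites, which 9.31% of all genes had, so all 5 were in both lists, as were 9.28% of all genes. Expression levels were not used here, and the difference from all genes was not tested. The lists hold only called sites, so absence from them sets no upper limit on the methylation of Hml, NimC1 or lz. Among the 3857 genes with sites the median was 3 sites, and 278 genes had as many sites as Pvr or more.

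**Figure D1:**
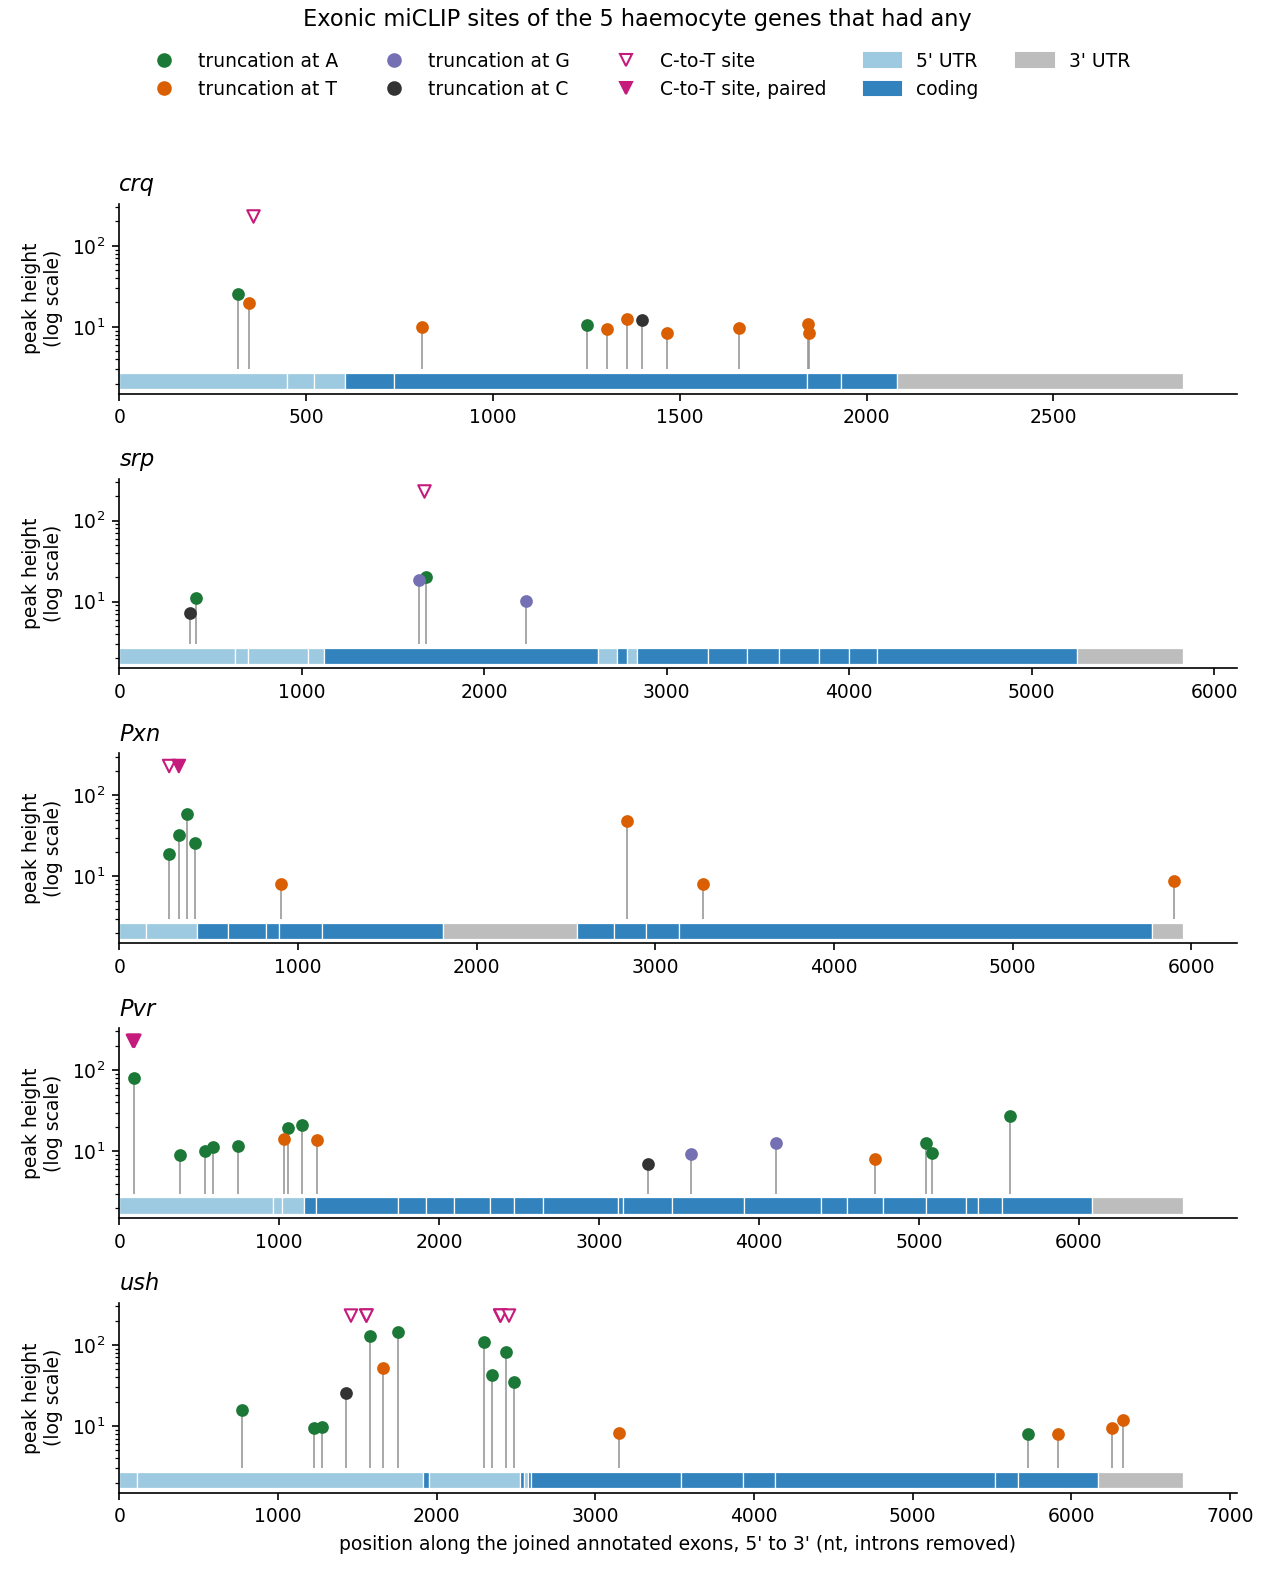
Sites along the joined annotated exons of each gene, in nucleotides from the 5' end with introns removed, with peak height of truncation sites on a log axis and coloured by base. Triangles mark C-to-T sites at a fixed level with no value (some of the 12 lie too close to be seen apart), filled where a truncation at A lies directly upstream. Light blue, dark blue and grey bars are 5' UTR, coding sequence and 3' UTR, and the 8 truncations outside annotated exons are not drawn. The tallest truncations of ush, Pvr, Pxn and crq stand over 5' UTRs, and 9 lower ones of crq spread over its coding sequence.

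The transcription regulators are taken first. ush (FBgn0003963, chromosome 2L, 476220 to 540560, plus strand, dm6) carried 6 of the 12 C-to-T sites, and all 6 lay in 5' UTRs. They formed separate clusters in 5' UTRs of different transcripts. The upstream cluster lay in the stretch from 490835 to 491315, with which ush-RB begins and which ush-RE also holds. There C-to-T sites stood at 490864, 490960 and 490962, with conversions of 7.09%, 3.80% and 2.11%. The downstream cluster lay in the 5' UTR stretch from 523466 to 524037, in exon 1 of ush-RA and ush-RC, at 523911, 523914 and 523967, with conversions of 3.43%, 3.16% and 1.32%. The clusters lay 354 to 452 nt and 71 to 127 nt upstream of the start codons of these transcripts.

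The site at 490960 had the most converted tags of ush, a mean of 14.97 of 394.97 unique tags per IP, and was found in 4 IPs. Its conversion was 4.85% with Novoalign, 2.50% with STAR and 4.06% with BWA, and the Wilson 95% interval from the mean tags was 2.31% to 6.16%. The site at 490864 had the highest conversion of the gene, with an interval of 3.75% to 13.1% from 123.1 tags, and was not called with STAR. These intervals overlap, but they rest on the mean tags of 1 IP although both sites were found in 4 IPs. The difference between the 2 sites was not tested. At 523967 the 616.4 tags gave an interval of 0.668% to 2.56%, which lies below that of 490864.

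The truncations of ush held the 4 tallest of the haemocyte genes, and all 4 were at A, in 5' UTRs and in 4 IPs. In the upstream stretch the peak at 491160 was 147.8 with Novoalign, 169 with STAR and 110.5 with BWA, a mean of 142.4, and that at 490981 had a mean of 128.5. In the downstream stretch the peaks at 523810 and 523949 reached 107.8 and 82.2. The peak at 491160 ranked 157 among all 22917 truncations, for which the median height was 14.5 and the upper quartile 23.25. None of these 4 stood beside a converted C. The nearest C-to-T sites lay 198, 19, 101 and 18 nt away, and ush had no pair.

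Outside the 5' UTRs ush had 3 truncations in coding sequence and 2 in the 3' UTR, with heights between 8 and 11.9, and 4 of these 5 were at T. The remaining 5' UTR truncations of ush were lower, between 9.5 and 52, and the highest of them, at T at 491066, was given by STAR alone and in 2 IPs. The stretch from 490835 to 491315 is also covered by an exon of the noncoding gene lncRNA:CR46258 on the same strand, so the 3 C-to-T sites and 3 truncations of ush there cannot be assigned to ush mRNA alone. The downstream cluster has no such overlap.

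srp (FBgn0003507, chromosome 3R, 15986152 to 16004085, plus strand) had the fewest sites of the 5 genes but the strongest conversion. Its C-to-T site at 15994774 lay in coding sequence, in exon 1 of srp-RA and srp-RB, 634 nt from their start, and the other 5 annotated transcripts do not include it. A mean of 23.8 of 257.8 tags was converted, in 4 IPs (Wilson 95% interval from these tags 6.28% to 13.4%). The mean of the deposited percents was 8.93%. By aligner the conversion was 9.57% with Novoalign, 6.94% with STAR and 10.3% with BWA. It ranked 217 of 6225 by converted tags and 649 by conversion, and it was the one C-to-T site of the haemocyte genes in coding sequence. Over all C-to-T sites in coding sequence the median conversion was 2.02% and the upper quartile 3.96%.

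A truncation at A stood 8 nt downstream of that C, at 15994782, with heights of 21.5, 18.5 and 21 by the 3 aligners, and a truncation at G stood upstream of it, at 15994748, with a height of 18.5. No truncation was listed at the base directly upstream, so the site with the most converted tags of the 12 was not a pair. In the 5' UTR exon that opens srp-RD, srp-RE and srp-RG, truncations at 15986537 (at C, height 7.33) and 15986570 (at A, height 11) were low. Exons of lncRNA:CR44133 cover both on the same strand. lz, the other transcription factor gene (FBgn0002576, chromosome X, 9284649 to 9303636, plus strand), had no site.

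Among receptor genes, Pvr had the most sites. Pvr (FBgn0032006, chromosome 2L, 8220980 to 8239878, minus strand) encodes the receptor tyrosine kinase for the PDGF- and VEGF-like Pvf ligands. Its C-to-T sites at 8239794 and 8239785 lay close together in exon 1, in the 5' UTR of 11 of 13 transcripts, 84 and 93 nt from the transcript start. They were among the better covered sites of the haemocyte genes, with 422.3 and 571.8 tags, but conversions were low, at 1.84% (0.923% to 3.62%) and 1.92% (1.08% to 3.42%). The intervals, which rest on the mean tags of 1 IP, nearly coincide, and the difference between these neighbours was not tested.

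The site at 8239785 was a pair. Directly upstream of it, at 8239786, stood the tallest Pvr truncation, at A and in 4 IPs, with heights of 89.25 with Novoalign, 83.25 with STAR and 70 with BWA. Its mean of 80.8 ranked 641 of 22917. The converted tags at the C were 12.7, 7.5 and 13 by the same aligners. The other 4 truncations of the 5' UTR block from 8238919 to 8239878 were all at A too but were lower, between 9 and 11.6. Those at 8239498, 8239344 and 8239292 fell in exon 1 of Pvr-RD and Pvr-RH and in no exon of the other transcripts.

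In the 5' UTR stretch next to the start codon (8230195 to 8230331), which all 13 transcripts share, truncations stood at 8230323 (at T), 8230296 and 8230208 (both at A), with heights of 14, 19.4 and 21.3. That at 8230323 was given by BWA alone and in 2 IPs. The coding sequence of Pvr held 8 truncations, 3 at A, 2 at T, 2 at G and 1 at C, and no C-to-T site. The tallest of them, 27.5 at 8222066, was at A in 4 IPs. The 3' UTR had none, and 5 further truncations were labelled intron. Per kilobase of annotated exon the gene had 8.64 sites in 5' UTR and 1.62 in coding sequence.

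crq (FBgn0015924, chromosome 2L, 448254 to 453024, minus strand) encodes a receptor of the CD36 family for apoptotic cells, and its truncations lay mostly in coding sequence, unlike those of ush. Of its 13 truncations 9 lay in coding sequence, 7 of these at T, 1 at C and 1 at A, and all had heights between 8.5 and 12.5, under the median of all truncations. The density was 6.10 sites per kilobase of coding sequence and 4.96 in 5' UTR. A total of 7 crq sites rested on 1 aligner, 5 on STAR and 2 on Novoalign.

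The stronger crq sites lay far upstream of this group. The C-to-T site at 452668 had 8.78 of 216.2 tags converted, with a mean deposited percent of 3.96% (2.13% to 7.59%), in 3 IPs. By the 3 aligners this site had 3.98%, 2.97% and 4.93%. Truncations at 452677 (at T, height 19.5) and 452708 (at A, height 25.75, the tallest of crq) stood 9 and 40 nt upstream of it. The authors labelled these 3 sites as 3' UTR. In the Ensembl annotation they lie in the 5' UTR of crq-RA, crq-RB, crq-RD and crq-RE, 176 to 216 nt upstream of the start codon. No other haemocyte gene had a site whose part differed between the authors' label and the annotation, which were the same at 73 of 76 sites. NimC1 (FBgn0259896, chromosome 2L, 13973158 to 13976769, minus strand), a Nimrod receptor for phagocytosis, had no site.

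Of the genes for secreted proteins Pxn had sites and Hml had none. Pxn (FBgn0011828, chromosome 3L, 2601455 to 2630064, minus strand) encodes an extracellular matrix peroxidase, and 6 of its 11 sites lay just before the start codon. Within 286 nt of 5' UTR (2629311 to 2629596) stood 2 C-to-T sites and 4 truncations, all 4 at A, a density of 21.0 sites per kilobase. The Pvr stretch next to its start codon had a similar 21.9. Over all annotated 5' UTR, as given for Pvr and crq, the density of Pxn was 13.7. The truncations fell at 161, 106, 59 and 12 nt from the start codon, with heights of 19, 32.2, 59.5 and 26. The tallest, at 2629369, measured 62.5 with Novoalign, 62.5 with STAR and 53.5 with BWA, in 4 IPs.

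The C-to-T site at 2629415 was the other pair, with its truncation at A at 2629416 (height 32.2, in 2 IPs). There 8.67 of 201.2 tags were converted, with a mean deposited percent of 4.26% (2.26% to 8.07%), in 3 IPs. The site was called with Novoalign (4.20%) and BWA (4.31%) but not with STAR. The second C-to-T site, at 2629469, had 5.46% (2.50% to 11.5%) of 107 tags and was found in 2 IPs. Its nearest truncation, at A, lay 2 nt upstream rather than 1. In coding sequence Pxn had 3 truncations, all at T, of which that at 2608248 stood out with 52.5, 50.5 and 40 by the 3 aligners in 4 IPs, against a height of 8 for the other 2. Hml (FBgn0029167, chromosome 3L, 13846054 to 13860001, plus strand), with 11532 nt of coding sequence, had no site.

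**Figure D2:**
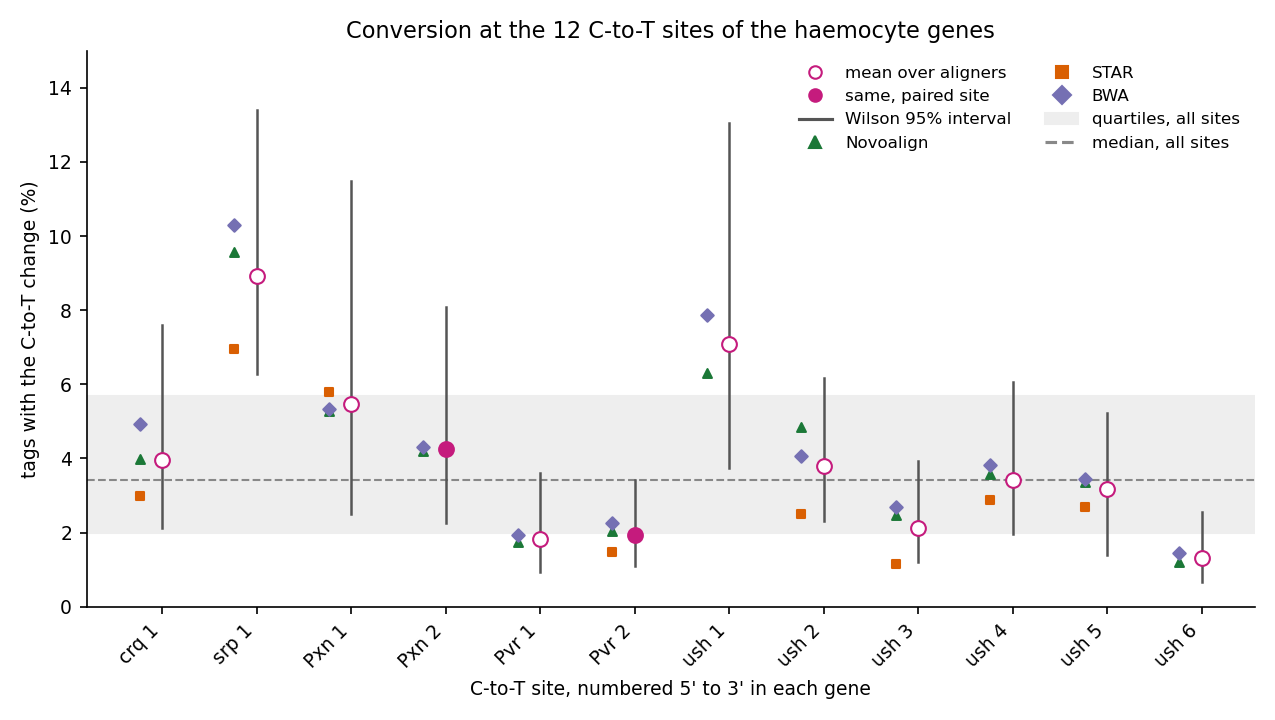
Percent of unique tags with the C-to-T change at each of the 12 sites, numbered 5' to 3' in each gene. Circles, filled for the 2 pairs, are the mean of the deposited percents over aligners, and small symbols to the left the value by aligner. Lines are Wilson 95% intervals for counting error, built from the mean tags. The grey band and dashed line are the quartiles and median of all 6225 C-to-T sites. The srp site is highest at 8.93%, and its interval lies above the upper quartile of all sites (5.69%).

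Over the 5 genes, C-to-T sites had a median conversion of 3.62%, from 1.32% to 8.93%, beside 3.43% over the whole list (quartiles 1.99% and 5.69%). They were covered by a median of 313.8 tags (107 to 616.4), beside 274.3. The intervals of 11 of the 12 sites reach into the quartile range of the whole list, and that of srp lies above it. At the 8 sites given by all 3 aligners, the STAR value was lower than the Novoalign value at 7, as it was at 83.3% of 2677 such sites in the whole list.

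By the authors' labels 10 of these 12 were placed in 5' UTRs, a share of 83.3% (55.2% to 95.3%), beside 56.5% of the whole list. With the annotation the count was 11 of 12, crq being the gene that moved. Without ush it was 4 of 6 by the authors' labels, or 66.7%. The difference from the whole list was not tested, since sites of the same gene are not independent. Among truncations 25 of 64 (39.1%) were labelled 5' UTR, 26 (40.6%) coding, 5 (7.81%) 3' UTR and 8 (12.5%) intron. The whole list had 33.9%, 38.8%, 13.8% and 8.05%. Without ush the 5' UTR share of truncations was 29.2%, below that of the whole list rather than above it.

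**Figure D3:**
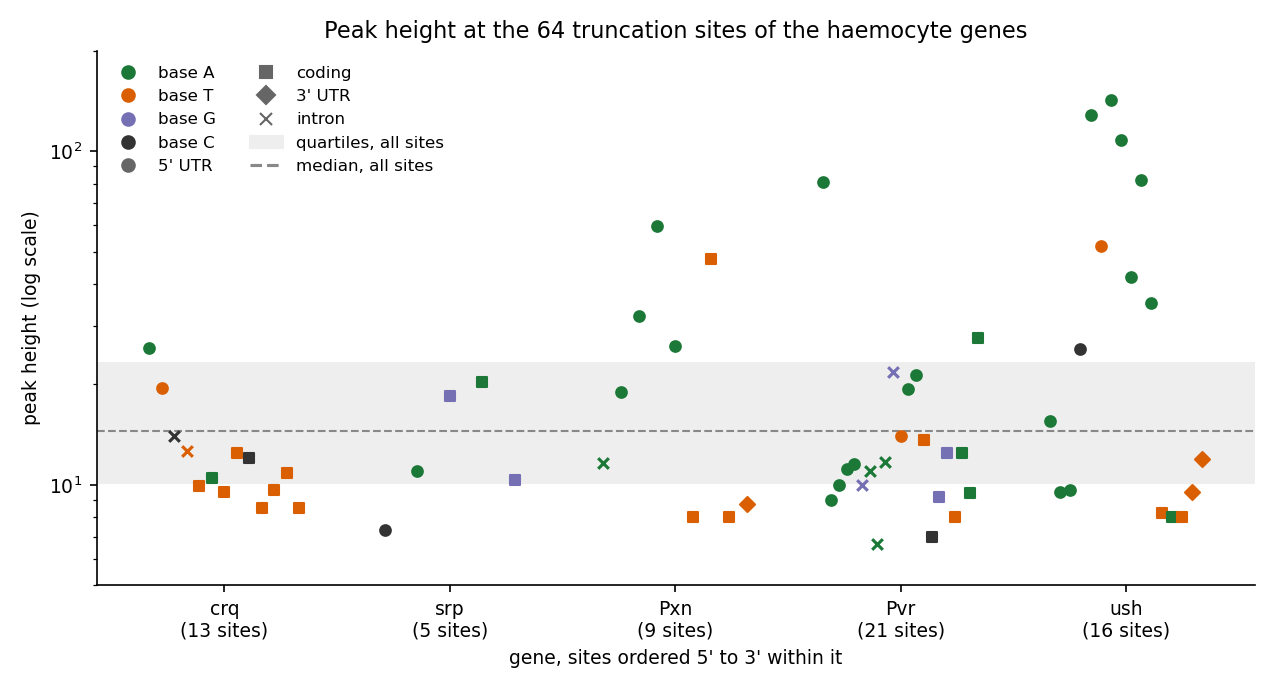
Peak height on a log axis for each of the 64 truncations, ordered 5' to 3' within its gene, with colour for the base and shape for the annotated part. The grey band and dashed line are the quartiles and median of all 22917 truncations. Of the 64 points 23 lie above the median of all truncations. Above the band, whose upper edge is the upper quartile of all, lie 15. Of these 15, 12 are at A and 8 belong to ush. The share at A above that edge over the whole list is not given here.

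Truncations at A made up 32 of 64 (50%, Wilson 95% interval 38.1% to 61.9%), beside 51.9% of the whole list, T 21 (32.8%), G 6 (9.38%) and C 5 (7.81%). The base at these truncations differed by part. The intervals below treat sites as independent, which sites of a gene are not, so they make no test of this difference. In 5' UTRs 21 of 25 were at A (84.0%, 65.3% to 93.6%), with 2 at T and 2 at C, whereas in coding sequence 6 of 26 were at A (23.1%, 11.03% to 42.1%) and 14 at T. The same shares over the whole list were 72.3% and 37.3% at A, both within these intervals. By gene, ush and Pvr gave 9 and 7 of the 21 at A in 5' UTRs. In coding sequence crq gave 7 of the 14 at T, while Pvr had 3 at A and 2 at T. With the annotation's parts, 22 of 27 in 5' UTRs were at A, and all 3 in 3' UTRs were at T. The bases available in each part were not counted, and no genome sequence was used here.

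**Figure D4:**
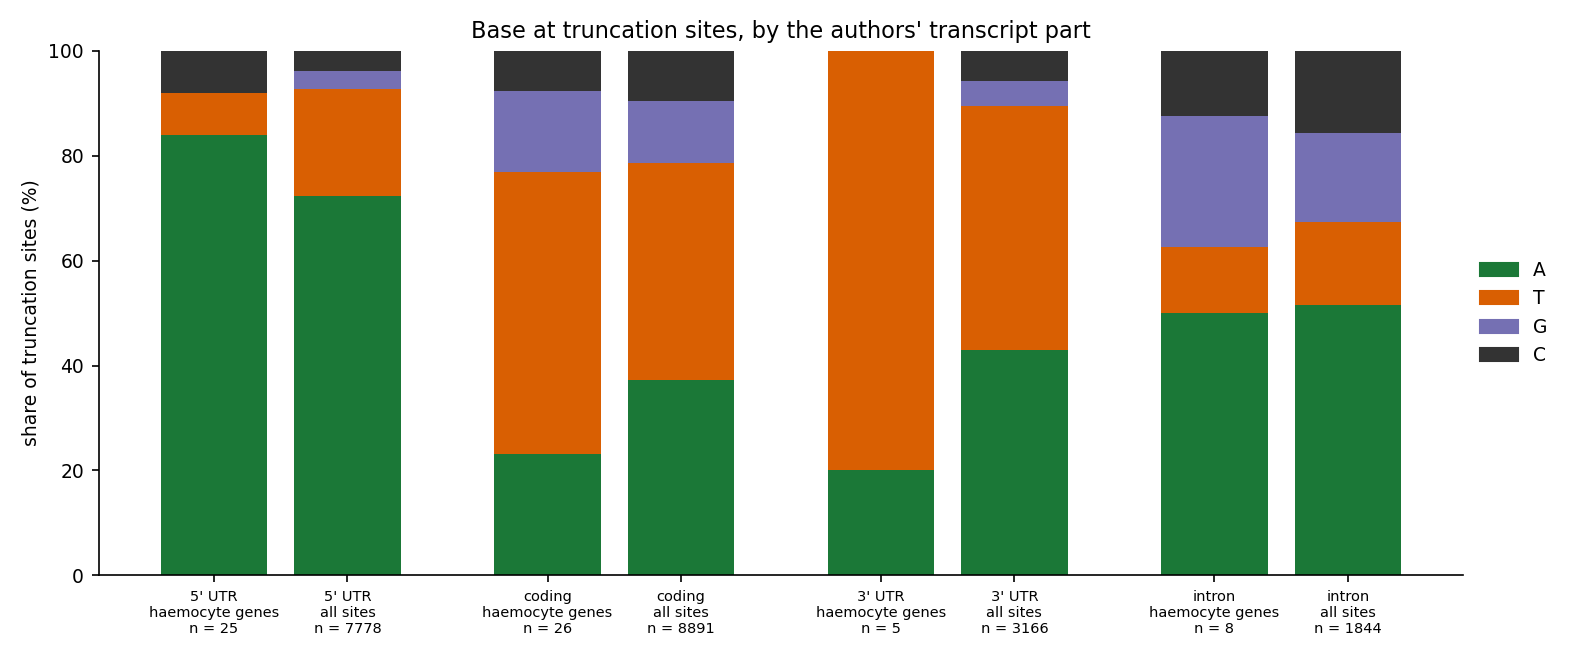
Share of truncation sites at each base, in percent, by the authors' transcript part, for the haemocyte genes and for all sites, with the number of sites under each bar. A makes up 84.0% of haemocyte gene truncations in 5' UTRs and 23.1% in coding sequence, beside 72.3% and 37.3% of all sites.

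The share at A was larger among truncations shared by more IPs. Of truncations in 4 IPs 14 of 20 were at A, in 3 IPs 8 of 12 and in 2 IPs 10 of 32, or 70.0%, 66.7% and 31.25%, beside 64.7%, 52.7% and 43.5% over the whole list. Median heights in these classes were 20.4, 11.6 and 10.25. Over all 64 truncations the median height was 11.8, beside 14.5 over the whole list. Heights at A had a median of 17.3 and a maximum of 142.4. Those at T had a median of 9.67 and a maximum of 52. The medians over the whole list were 15.7 at A and 13.5 at T. All 64 carried a CTK p-value of the authors, from 0.000553 down to 1e-100, the lowest value written, which describes each peak and is no test between genes.

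Pairs were few. Of the 12 C-to-T sites 2 had a truncation at A directly upstream (16.7%, 4.70% to 44.8%), beside 35.1% of the whole list. Of the 10 labelled 5' UTR also 2 were pairs (5.67% to 50.98%), beside 48.8%. Both intervals hold the share of the whole list. Without ush, 2 of the 6 C-to-T sites left were pairs, so the lower share rested on ush. Both pairs were in 5' UTRs, in Pvr and Pxn, and the second Pxn site missed by 1 nt. The 6 sites of ush, each in a 5' UTR, had their nearest truncations 18 to 38 nt away. The differences from the whole list were not tested.

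Other haemocyte genes gave a wider view of the line. Of 36 further genes used in the study of haemocytes 16 had a site in either list (44.4%), and 9 had a C-to-T site. The leading ones were msn, a kinase gene of the JNK pathway (31 sites), pnr, a GATA factor gene (31), Pvf2, which encodes a ligand of Pvr (29), zfh1, a transcription factor gene (29), Pax, which encodes Paxillin (14), and pes, a CD36 family gene like crq (14). No site was listed for He, eater, NimC2, NimC4, Sr-CII, Col4a1, Pvf1, gcm, gcm2 or atilla. PPO1, PPO2, PPO3, kn, Tep2, Mcr, PGRP-LC, emp, Fer2 and Nplp2 had none either. Pvf2 had 13 C-to-T sites, 6 of them pairs, against 2 C-to-T sites and 1 pair in its receptor gene Pvr. In zfh1 5' UTRs held 10 of the 11 converted positions, and 4 were pairs, where ush had 6 of 6 in 5' UTRs and no pair. Of 24 genes of signalling pathways that act in blood cells, 18 had a site (75%), and 8 had a C-to-T site, which 9.31% of all genes had. Those with the most sites, named after their values were seen, were Rac2 (14), Stat92E (11), cact (9) and dome (9, all truncations). Of marker genes of other cell types, those with a site were 1 of 8 neuronal (futsch, 1 site) and 2 of 8 muscle (25%, Mef2 with 18 sites and sls with 1). For fat body it was 1 of 8 (Lpin, 6 sites) and for germline 0 of 7 matched genes. All these shares stand beside the 27.6% of all genes, and none was tested.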

How the data were processed

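Site values are the authors' own. Per the submitters' processing notes the genome build was dm6, and cutadapt 1.8, Bowtie 1.1.2, STAR 2.4.2a, Novoalign and BWA were used, without their roles. Per the legend deposited with the files, the CTK toolkit called the sites separately on the output of each aligner (Novoalign, STAR, BWA), and the lists keep those shared by 2, 3 or 4 IPs. A C-to-T site has as deposited values the unique tag count, the converted tag count and the percent converted, each a mean over the sharing IPs, and a false discovery rate (a q-value), which was 0 at every site. A truncation has as deposited values the peak height (signal), its null value, a p-value and the base. The legend does not say how heights of several IPs were merged. The deposited score column is the number of aligners that gave a site.

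Here the mean over aligners was used, and the highest number of IPs over aligners. Positions are 1-based. Genes were taken from the deposited gene name, and parts from the deposited label, with Ensembl release 115 (BDGP6.54, dm6 coordinates) beside it, in the order 5' UTR, coding sequence, 3' UTR. Of the 36 and 24 further haemocyte and signalling genes all matched the annotation. Wilson 95% intervals of conversions used the mean tags of 1 IP and cover counting error only. The conversions are means of the deposited percents, so they can differ somewhat from the ratio of mean tags on which the intervals rest. Every gene was named. Of its sites the text names the C-to-T site with the most converted tags, that with the highest conversion, each pair and the tallest truncation, and further sites were picked after their values were seen. The 6 other haemocyte genes named with site counts are those with the most sites, and all those of that list without a site are named. Members and lists were chosen with earlier results of these data known. No test was made. The functions for pairs and parts were tested on simulated data. Python 3.11.15 and matplotlib 3.10.9 were used.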

Additional observations from a re-analysis of the deposited data

How the results depend on the processing

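Across 11 settings, 54 of 68 recomputed values stayed within 1.5 times (counts) or within the Wilson interval (shares and median conversion), and 14 moved. Of these settings 4 were chosen after seeing the data: without ush, without Pvr, without sites in exons of overlapping noncoding genes, and without sites outside annotated exons. Among sites in 4 IPs there were 4 C-to-T sites, 20 truncations and 0 pairs, and 70.0% of truncations were at A. The median conversion there was 5.44%, outside the interval of 1.46% to 5.26% used for it. That interval was built from the median converted tags and the median unique tags. It covers counting error only and not the spread over sites. With all 3 aligners there were 33 truncations, 51.5% of them in 5' UTRs and 66.7% at A, and 1 pair. With truncations above the median height of all there were 23, 69.6% of them in 5' UTRs and 73.9% at A. Without ush 6 C-to-T sites were left, and without Pvr 1 pair. The cause was not tested, beyond the smaller number of sites in each. The count of 5 genes with sites held under all settings that left no gene out. Assigning genes by the annotation gave the same 12 and 64 sites. Values are combined over IPs, so leaving out each replicate was not possible. No paired analysis was possible because the site lists carry no value per replicate and no test was made. Depth is known as tags at listed C-to-T sites, 107 to 616.4 here, and elsewhere is unknown.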

Other observations

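Most truncations outside annotated exons were given by 1 aligner. Of the 8 labelled intron, 6 were given by 1 aligner, beside 19 of all 64 and 25.99% of the 22917 in the whole list. The share among intron truncations of the whole list is not given here. The 6 of 8 therefore cannot be called particular to the haemocyte genes. Pvr at 8230332 (at G, height 21.75, in 4 IPs) lay 1 nt outside the edge of an exon, and crq at 450881 (at C, height 14, in 4 IPs) lay 3 nt outside one, and both were given by Novoalign alone. Pxn at 2629803 and Pvr at 8230485, both at A, were given by all 3 aligners, at 111 and 133 nt from the nearest exon, with heights of 11.7 each. Over all 64 truncations, 5 of the 19 given by 1 aligner were at A (26.3%), 5 of 12 given by 2 (41.7%) and 22 of 33 given by 3 (66.7%). The same shares over the whole list are not given here, so these cannot be called particular to the haemocyte genes. In ush, the truncation at 490833 (at C, height 25.5, Novoalign alone) lay 2 nt upstream of the first exon of ush-RB, inside an exon of ush-RE.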
